A study of Arabidopsis thaliana with 12 samples.

Results

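The microRNAs miR158, miR161 and miR400 of Arabidopsis thaliana were followed in 12 small RNA libraries. Members were all entries of the families miR158, miR161 and miR400, whatever the arm of the hairpin, and 6 of the 240 different entries in the files met this: ath-miR158a-3p, ath-miR158a-5p, ath-miR158b, ath-miR161.1, ath-miR161.2 and ath-miR400, written here without the species prefix. They come from 4 precursor genes, MIR158a (AT3G10745), MIR158b (AT1G55591), MIR161 (AT1G48267) and MIR400 (AT1G32582). By RefSeq's gene annotation (TAIR10.1), which served for names and neighbours alone, MIR400 overlaps the protein-coding gene AT1G32583, and none of the other 3 overlaps another gene. All 6 entries were listed in every file.

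Of the 12 libraries, 8 hold small RNA that co-purified with GFP-tagged ARGONAUTE1 (AGO1) from roots of plants aged 9 days, and 4 hold total small RNA of seedlings aged 14 days that carry no transgene. The AGO1 fusion was driven by the ACL5 promoter (metaxylem and procambium) or the EN7 promoter (endodermis), each in the ktn1-20 mutant and in wild type (WT), ecotype Col-0 throughout. ktn1-20 is an allele of KTN1, which encodes the catalytic subunit of the microtubule-severing enzyme katanin. The 6 groups, with 2 libraries each, are ACL5 ktn1, ACL5 WT, EN7 ktn1, EN7 WT, seedling ktn1 and seedling WT. The labels do not say whether the 2 libraries of a group came from separate plants or lines, so p-values measure only the spread between these libraries. A promoter line samples the cells in which that promoter is active, and endogenous AGO1 is not tagged. Precipitates from plants without the tag were not analysed here. The tables hold mature miRNAs only, so no marker gene of endodermis, metaxylem or procambium could be checked, and neither could the KTN1 transcript.

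A miRNA is cut from a folded precursor as a duplex of 2 arms. AGO1 keeps one arm, the guide, which directs cleavage of transcripts that pair with it, and the other arm is normally discarded. miR158, miR161 and miR400 are known from Arabidopsis and its relatives rather than from plants in general. Their described targets include transcripts of pentatricopeptide repeat (PPR) proteins, a large family that binds and processes RNA in mitochondria and chloroplasts. MIR161 is known to give a pair of overlapping mature products, miR161.1 and miR161.2, from the same arm of its precursor. miR173 reaches PPR transcripts by another route: it starts the production of trans-acting siRNAs from TAS1 and TAS2 transcripts, and some of these siRNAs pair with PPR mRNAs.

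Values are RPM, reads scaled to a library total whose definition is not given in the sources used here. Read as multiples of each file's smallest value, the denominators were 5804745 to 13004041 reads in the AGO1 libraries and 13769316 to 44332443 reads in the seedling libraries. A floor of 3 reads, below which a value cannot be told from 0, was worth 0.231 to 0.517 RPM for AGO1 and 0.0677 to 0.218 RPM for seedlings. These floors cover counting error only. Listed miRNAs took 25.1% to 59.5% of the denominator in AGO1 libraries and 1.68% to 2.45% in seedlings. In AGO1 libraries the miR165 and miR166 family alone took 57.9% and 64.8% of listed miRNA reads in EN7 ktn1, 40.4% and 32.7% in EN7 WT, 4.46% and 4.69% in ACL5 ktn1, and 15.9% and 17.6% in ACL5 WT. In a principal component analysis of the 77 other well-detected AGO1-bound miRNAs, outside miR165, miR166 and the members, the first component (53.8% of the variance) put EN7 WT replicate 1 at -4.52, among the ACL5 libraries (-8.61 to -0.40) and apart from EN7 WT replicate 2 (7.95) and the EN7 ktn1 libraries (8.38 and 12.8). ACL5 ktn1 replicate 2, at -0.40, lay between these sides. Several values below moved when one of these was left out, and are then given both ways.

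The 6 members covered a wide range of abundance. miR158a-3p ranked between 1 and 4 among all listed entries in every library, and made up 7.65% to 18.6% of listed miRNA reads in the AGO1 libraries and 16.6% to 22.8% in seedlings. miR161.1 ranked between 4 and 10, at 0.65% to 9.85% of listed miRNA reads in AGO1 libraries and 6.09% to 8.05% in seedlings. miR158b ranked between 18 and 48. miR161.2 held 4 to 128 reads and miR158a-5p 0 to 251 reads in the AGO1 libraries. miR400 had 0 to 9 reads there, and 14 to 54 reads in seedlings. Together the members took 19.0% and 21.3% of listed miRNA reads in ACL5 ktn1, against 18.8% and 16.8% in ACL5 WT. In EN7 they took 18.2% and 8.35% in ktn1, against 21.8% and 13.9% in WT, and in seedlings 22.9% and 23.8% in ktn1, against 30.3% and 28.1% in WT. Seedling and AGO1 libraries differ in tissue, age and assay, and were not tested against each other.

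**Figure D1:**
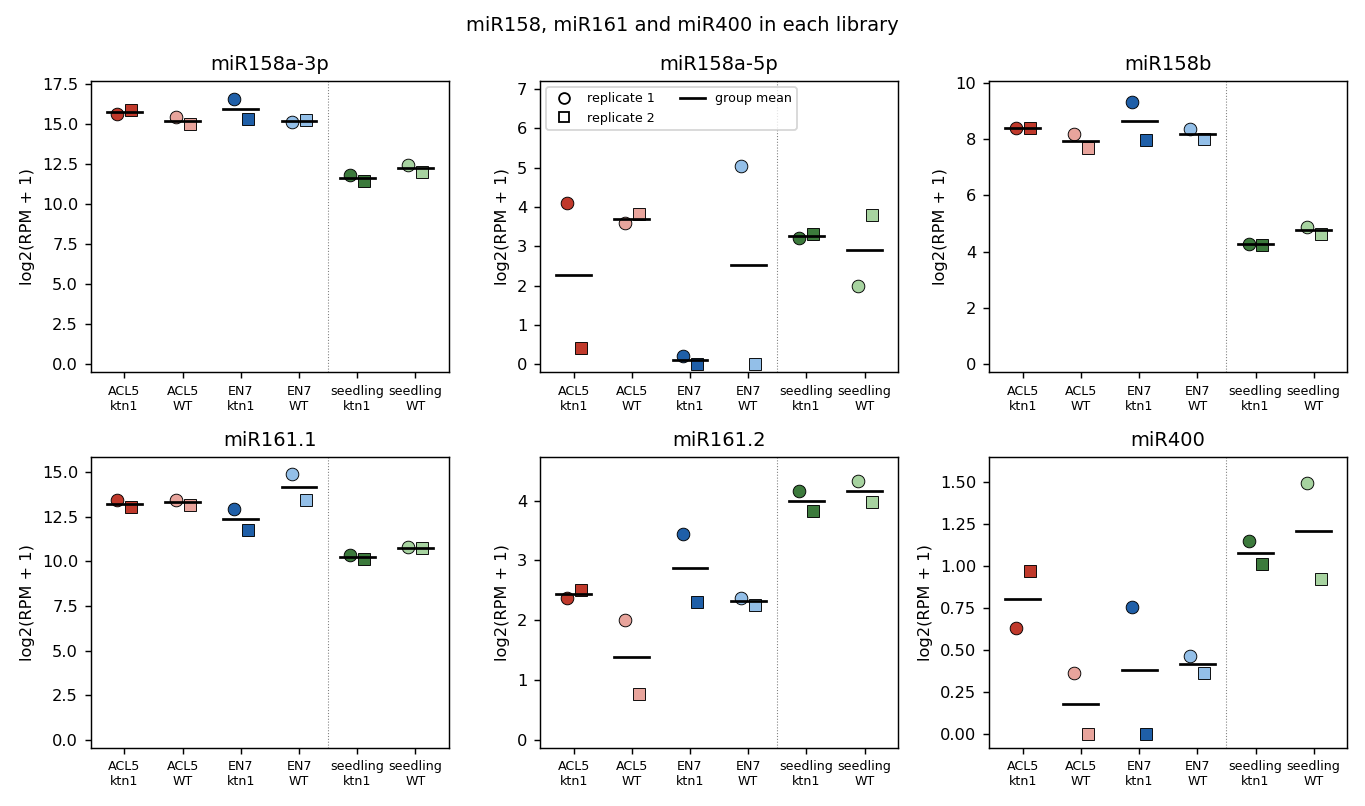
Level of each member, as log2(RPM + 1), in the 12 libraries (circle, replicate 1; square, replicate 2; bar, mean of 2 libraries). The 4 seedling libraries stand right of the dotted line. miR158a-3p and miR161.1 are abundant in every library, miR158a-5p is at or near 0 in 4 AGO1 libraries, and miR161.2 and miR400 have their highest values in seedlings.

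limma was run on log2(RPM + 1) for entries that reached 10 RPM in 2 or more libraries, 86 in the AGO1 set and 62 in seedlings, with Benjamini-Hochberg adjustment over all of these. miR158a-3p, miR158a-5p, miR158b and miR161.1 passed this filter in the AGO1 libraries, and miR158a-3p, miR158b, miR161.1 and miR161.2 in seedlings. miR400 passed in neither. No tested member had an adjusted p under 0.05 in any of the 6 comparisons, and 1 value, that of miR161.1 in EN7 ktn1 against WT, had an unadjusted p under 0.05. Of all tested entries, an unadjusted p under 0.05 was reached by 17.4% for ktn1 against WT in ACL5, 17.4% in EN7 and 9.68% in seedlings, by 8.14% for the difference between the layers' ktn1 effects, and by 18.6% in WT and 33.7% in ktn1 for ACL5 against EN7.

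On the RPM scale miR158a-3p, the guide arm of MIR158a, lay above WT in ktn1 in both root layers. In ACL5 it was at 50248 and 59640.5 RPM in ktn1, against 43838 and 32692 RPM in WT. The 2 genotypes did not overlap, and the mean was 54944 ± 6641 RPM in ktn1 and 38265 ± 7881 RPM in WT (SD, n = 2 each). The log2 difference was 0.53 (SE 0.40, limma adjusted p = 0.621). This ACL5 difference was 0.28 with libraries rescaled to equal miRNA sums and 0.51 with rescaling to the median miRNA. With equal sums that left out miR165 and miR166 it was 0.084. The median of all tested ACL5 entries was then -0.42, against -0.0019 on the RPM scale. In EN7 miR158a-3p was at 99414 and 41016 RPM in ktn1, against 36362 and 39998 RPM in WT. The ktn1 libraries there differed 2.42-fold from each other, and the second lay only just above both WT libraries. The log2 difference was 0.74 (SE 0.40, limma adjusted p = 0.367); it was 0.10 without ktn1 replicate 1 and 1.38 without ktn1 replicate 2, which then passed (limma adjusted p = 0.0361). With libraries rescaled to equal miRNA sums, the EN7 difference was 0.0040, and the median of all tested entries was -1.18, against -0.47 on the RPM scale. It was 1.34 with libraries rescaled to the median miRNA (limma adjusted p = 0.0556) and 0.72 with equal sums that left out miR165 and miR166. The miR158 family took 16.8% and 7.70% of listed miRNA reads in EN7 ktn1, against 11.96% and 10.8% in EN7 WT, which overlapped.

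miR158b, from a second locus of the family, followed miR158a-3p in level. It was at 332 and 338 RPM in ACL5 ktn1, against 292 and 206 RPM in ACL5 WT. In EN7 it was at 644 and 247 RPM in ktn1, against 331 and 253 RPM in WT. The ACL5 genotypes did not overlap, and the EN7 genotypes did. The log2 differences were 0.45 in ACL5 (SE 0.62, limma adjusted p = 0.841) and 0.46 in EN7 (SE 0.62, limma adjusted p = 0.678). The ACL5 difference was 0.20 with equal miRNA sums and 0.43 with rescaling to the median miRNA. With equal sums that left out miR165 and miR166 it was 0.0043, beside a median of -0.42 over all tested entries. In EN7 the sign turned, to -0.28 with libraries rescaled to equal miRNA sums and to -0.23 without ktn1 replicate 1. It was 1.05 with libraries rescaled to the median miRNA and 0.44 with equal sums that left out miR165 and miR166.

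Within a library, miR158b was a near-constant fraction of miR158a-3p. In AGO1 libraries there were 6.62 and 5.67 miR158b reads per 1000 miR158a-3p reads in ACL5 ktn1, against 6.66 and 6.29 in ACL5 WT. In EN7 there were 6.48 and 6.02 in ktn1, against 9.11 and 6.33 in WT. In seedlings there were 5.11 and 6.32 in ktn1, against 5.11 and 5.70 in WT. Over all 12 libraries this ratio varied 1.78-fold, while miR158a-3p itself varied 34.9-fold and miR158b 35.8-fold. Those wide ranges lie mostly between AGO1 and seedling libraries. Within the AGO1 libraries the ratio varied 1.61-fold, miR158a-3p 3.04-fold and miR158b 3.13-fold. Within seedlings the values were 1.24-fold, 1.96-fold and 1.59-fold. The highest ratio was that of EN7 WT replicate 1, and the other 11 lay between 5.11 and 6.66. The mature sequences of the 2 loci are near-identical, and whether the authors' counting could give reads of one to the other is not stated in the sources used here, so the level of miR158b is uncertain.

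miR158a-5p, the arm opposite the guide, was scarce throughout and split the AGO1 libraries. In ACL5 it held 148 and 3 reads in ktn1 (16.3 and 0.320 RPM), against 76 reads in each WT library (10.9 and 13.1 RPM). In EN7 it held 2 and 0 reads in ktn1 (0.154 and 0 RPM), against 251 and 0 reads in WT (31.9 and 0 RPM; a count of 0 allows up to 0.294 RPM in EN7 ktn1 and 0.432 RPM in EN7 WT). The 4 libraries with at most 3 reads were thus the EN7 ktn1 pair, ACL5 ktn1 replicate 2 and the second EN7 WT library, while the 4 with 76 reads or more were the ACL5 WT pair, the first ACL5 ktn1 library and EN7 WT replicate 1. This division ran through the replicates of 2 groups, and genotypes overlapped in both layers. It followed the first component above: the 4 libraries with 76 reads or more lay between -8.61 and -4.52, and the 4 others between -0.40 and 12.8. The part of that library difference in the values was not tested. The log2 difference was -1.44 in ACL5 (SE 1.76, limma adjusted p = 0.804) and -2.42 in EN7 (SE 1.76, limma adjusted p = 0.500). It was 0.41 in ACL5 without ktn1 replicate 2, and 0.10 in EN7 without WT replicate 1. Without EN7 WT replicate 2 the EN7 difference was -4.94 and passed (limma adjusted p = 0.0400). In seedlings miR158a-5p was at 8.21 and 8.93 RPM in ktn1, against 2.98 and 12.9 RPM in WT, and was not tested there. As a share of both arms, miR158a-5p was 0.228% and 0.313% in seedling ktn1 and 0.0533% and 0.307% in seedling WT, and at most 0.0877% in any AGO1 library.

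**Figure D2:**
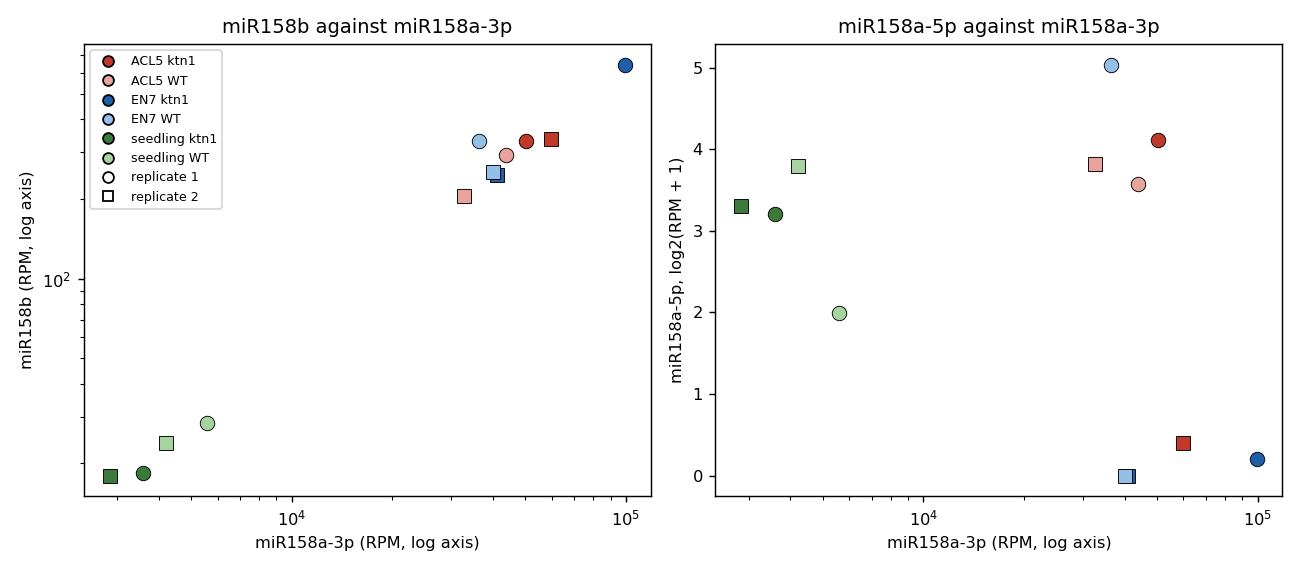
miR158b (left, RPM, log axis) and miR158a-5p (right, log2(RPM + 1)) against miR158a-3p (RPM, log axis) in the 12 libraries, coloured by group. miR158b is near proportional to miR158a-3p, with EN7 WT replicate 1 highest at 9.11 per 1000, whereas miR158a-5p is at 3 reads or fewer in 4 of the 8 AGO1 libraries and at 76 or more in the other 4.

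miR161.1, the main product of MIR161, had its highest level in EN7 WT and its lowest root level in EN7 ktn1. In EN7 it was at 7967 and 3485 RPM in ktn1, against 30223 and 11389 RPM in WT. Both ktn1 libraries lay below both WT libraries, and replicates within each genotype differed 2.29-fold and 2.65-fold. The log2 difference was -1.82 (SE 0.57), with an unadjusted p of 0.0155 and an adjusted p of 0.133 in limma. Without EN7 WT replicate 1 it was -1.11, and without EN7 WT replicate 2 it was -2.52 and passed (limma adjusted p = 0.0168). It also passed with libraries rescaled to equal miRNA sums (-2.56, limma adjusted p = 0.0460), where the median of all tested entries was -1.18. It did not pass with rescaling to the median miRNA (-1.22, limma adjusted p = 0.225) or with equal sums that left out miR165 and miR166 (-1.84, limma adjusted p = 0.141). In ACL5 it was at 10973 and 8433 RPM in ktn1, against 11172 and 9261 RPM in WT. On the RPM scale the ACL5 genotypes overlapped almost fully, with a log2 difference of -0.081 (SE 0.57, limma adjusted p = 0.946), which was 0.11 without ktn1 replicate 2. The ACL5 difference was -0.33 with equal miRNA sums and -0.11 with rescaling to the median miRNA. With equal sums that left out miR165 and miR166 it was -0.53, and none of these passed. As a share of listed miRNA reads, miR161.1 took 3.38% and 2.63% in ACL5 ktn1, against 3.80% and 3.70% in ACL5 WT, without overlap. How many other entries separated on the share scale was not counted. The median log2 difference of all tested ACL5 entries was -0.23 with equal miRNA sums. With equal sums that left out miR165 and miR166 this median was -0.42.

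miR161.2, the second product of MIR161, was far less abundant. It was at 4.18 and 4.70 RPM in ACL5 ktn1 (38 and 44 reads), against 3.02 and 0.689 RPM in ACL5 WT (21 and 4 reads). In EN7 it was at 9.84 and 3.92 RPM in ktn1 (128 and 40 reads), against 4.20 and 3.75 RPM in WT (33 and 26 reads). The genotypes did not overlap in ACL5 and did in EN7. No AGO1 library reached 10 RPM, so it was not tested there. In seedlings it was at 16.9 and 13.1 RPM in ktn1, against 19.1 and 14.8 RPM in WT. All 4 seedling values exceeded every AGO1 value, which was so for no other member.

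miR400 was at the limit of detection in the AGO1 libraries. It was at 0.550 and 0.961 RPM in ACL5 ktn1 (5 and 9 reads), against 0.288 and 0 RPM in ACL5 WT (2 and 0 reads). In EN7 it was at 0.692 and 0 RPM in ktn1 (9 and 0 reads), against 0.382 and 0.288 RPM in WT (3 and 2 reads). The ACL5 genotypes did not overlap and the EN7 genotypes did, on at most 9 reads a library and with no test. A count of 0 allows up to 0.517 RPM in ACL5 WT replicate 2 and 0.294 RPM in EN7 ktn1 replicate 2. In seedlings it was at 1.22 and 1.02 RPM in ktn1, against 1.82 and 0.895 RPM in WT, and these genotypes overlapped. Only ACL5 ktn1 replicate 2, among AGO1 libraries, reached into the seedling range.

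The counts of members were read against all tested entries. In ACL5, 0 of 4 tested members differed between ktn1 and WT, where 4.65% of the 86 entries were called (either direction), and 2 of 4 had genotypes that did not overlap, against 47.7% of entries (both members higher in ktn1, against 24.4%). In EN7, 0 of 4 were called, against 6.98% of entries, and 2 of 4 did not overlap, against 46.5%. These shares of members are thus near those of all entries. The ACL5 and EN7 comparisons of ktn1 with WT share no libraries, but all 8 AGO1 libraries share one estimate of spread. An interaction term was the ktn1 difference in ACL5 minus that in EN7. It called 2.33% of entries and no member, and its median over all tested entries was 0.45. It was 1.74 for miR161.1 (SE 0.80, unadjusted p = 0.0684, limma adjusted p = 0.588), 1.03 without EN7 WT replicate 1 and 2.44 without EN7 WT replicate 2. For miR158a-3p it was -0.21 (SE 0.57) and for miR158b -0.0098 (SE 0.88), both with signs that turned under equal miRNA sums (0.28 and 0.48). For miR158a-5p it was 0.98 (SE 2.49), 2.83 without ACL5 ktn1 replicate 2 and -1.55 without EN7 WT replicate 1, with limma adjusted p-values of 0.970 for both arms of MIR158a and 0.991 for miR158b.

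**Figure D3:**
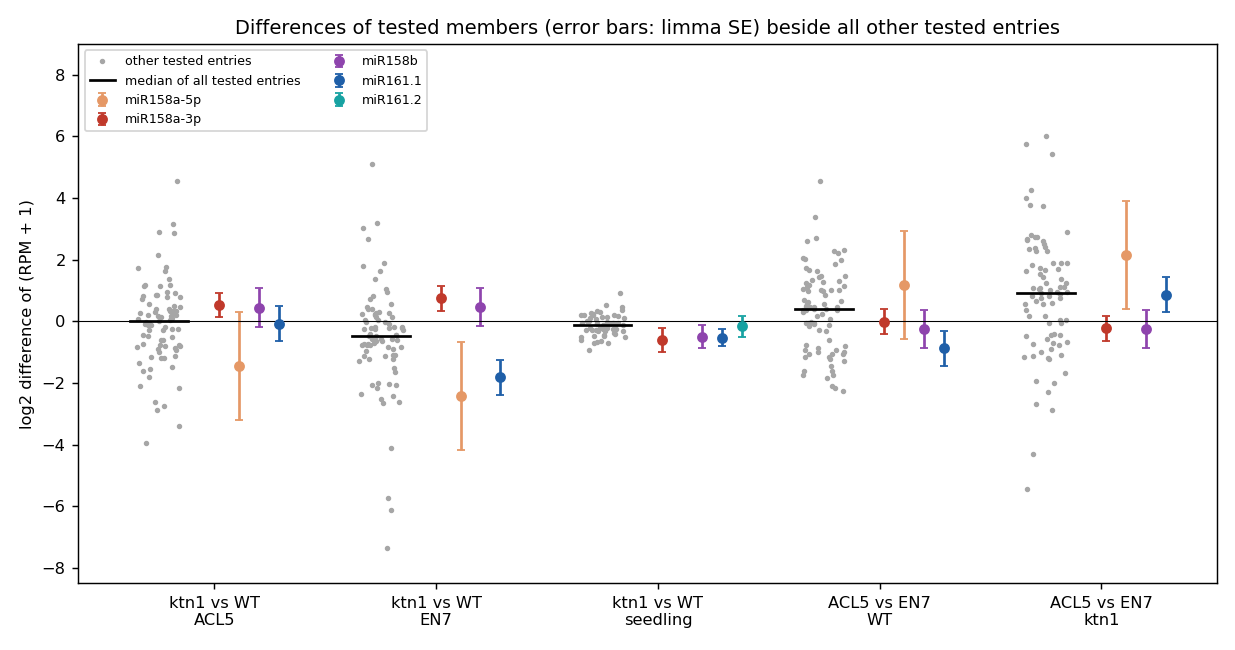
Log2 difference of each tested member (coloured, bar = limma SE) beside all other tested entries (grey) and the median of all tested entries (black line), for 5 comparisons. The members lie within the spread of the other entries, and miR161.1 in EN7 ktn1 against WT (-1.82) is the member with the smallest unadjusted p.

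Because RPM depends on the denominator, members were also set against each other within a library. In ACL5 there were 21.8 and 14.1 miR161.1 reads per 100 miR158a-3p reads in ktn1, against 25.5 and 28.3 in WT. In EN7 there were 8.01 and 8.50 in ktn1, against 83.1 and 28.5 in WT. All 4 ktn1 root libraries lay below all 4 WT root libraries, and the 2 EN7 ktn1 libraries agreed closely although their RPM differed more than 2-fold. The log2 ratio averaged -3.05 ± 0.68 in ktn1 and -1.47 ± 0.80 in WT (SD, n = 4 each), a difference of -1.59. The exact two-sided permutation p was 0.0286, the smallest that 4 against 4 can give, and 0.114 after adjustment over the 8 ratio tests, so it did not pass. This test exchanged libraries across the layers and did not keep ACL5 and EN7 apart. The difference was -0.61 within ACL5 and -2.56 within EN7 (exact permutation p = 0.333 each, the smallest that 2 against 2 can give). Leaving out both EN7 WT replicate 1 and ACL5 ktn1 replicate 2, an unplanned alternative, gave -1.26 (exact permutation p = 0.10, the smallest that 3 against 3 can give). Genotypes that were already apart cannot come to overlap when libraries are left out, so only the size of the difference is informative there. In seedlings there were 36.8 and 39.2 miR161.1 reads per 100 miR158a-3p reads in ktn1, against 32.1 and 40.6 in WT, which overlapped (log2 difference 0.072). Between layers the log2 ratio differed by 0.12, ACL5 minus EN7 (exact permutation p = 0.943), and by 1.01 without EN7 WT replicate 1 and ACL5 ktn1 replicate 2 (exact permutation p = 0.40). The 0.12 pools differences of opposite sign, -0.86 in WT and 1.09 in ktn1. Layers did not overlap in either genotype (exact permutation p = 0.333 each). In WT, EN7 replicate 2 (28.5 per 100) lay only just above the higher ACL5 library (28.3).

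The balance of the MIR161 products, a ratio chosen after the values were seen, went the other way. In ACL5 there were 0.381 and 0.557 miR161.2 reads per 1000 miR161.1 reads in ktn1, against 0.271 and 0.0744 in WT. In EN7 there were 1.24 and 1.13 in ktn1, against 0.139 and 0.329 in WT. Again all 4 ktn1 root libraries lay on one side of all 4 WT root libraries, with a log2 difference of 1.76 (exact permutation p = 0.0286, adjusted p = 0.114), which was 1.68 without EN7 WT replicate 1 and ACL5 ktn1 replicate 2. The reads per 1000 are plain ratios, but the log2 ratios had 1 RPM added to each entry. The log2 difference was 2.03 with 0.1 RPM added and 1.37 with 5 RPM added, so it depended on the RPM scale. In seedlings there were 12.8 and 11.8 per 1000 in ktn1, against 10.7 and 8.66 in WT, which also did not overlap (log2 difference 0.36, exact permutation p = 0.333). The seedling ratios lay above every AGO1 ratio. The lowest ACL5 WT value rests on 4 reads of miR161.2. miR161.1 is the divisor here and the numerator of the preceding ratio, so the 2 ratios are not independent.

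**Figure D4:**
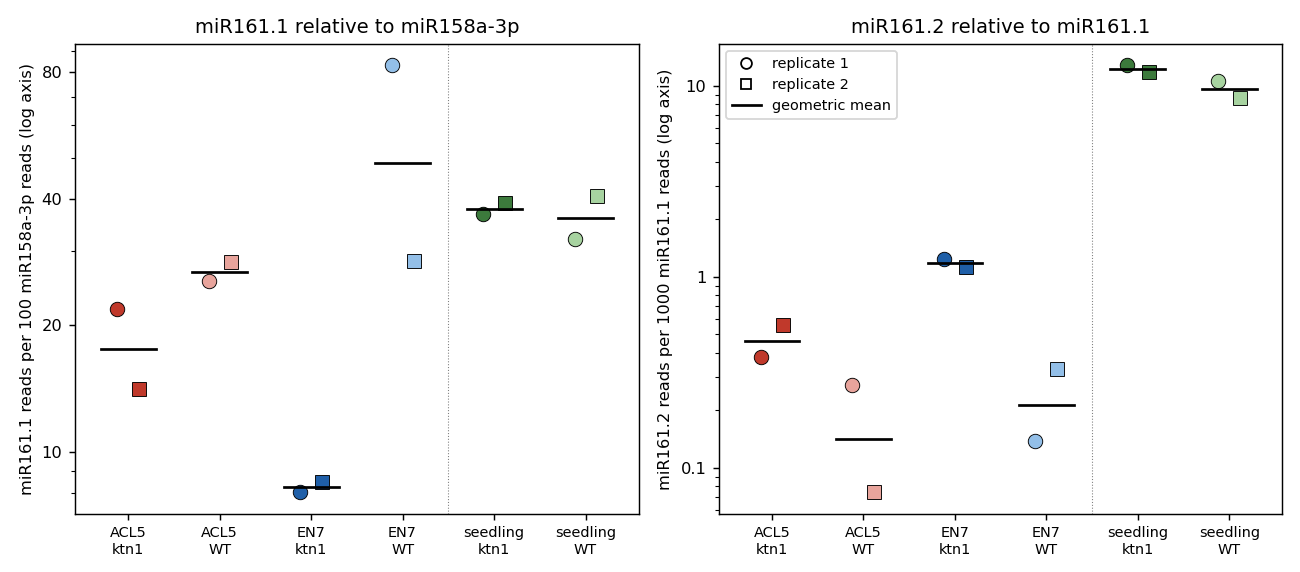
Reads of miR161.1 per 100 reads of miR158a-3p (left) and of miR161.2 per 1000 reads of miR161.1 (right) in each library, on log axes (bar, geometric mean of 2 libraries). Left, the 4 ktn1 root libraries (8.01 to 21.8) lie below the 4 WT root libraries (25.5 to 83.1), while seedling genotypes overlap. Right, the 4 ktn1 root libraries (0.381 to 1.24) lie above the 4 WT root libraries (0.0744 to 0.329).

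The ratio of the MIR158a arms, miR158a-3p over miR158a-5p, had a log2 difference of 2.57 between ktn1 and WT root libraries (exact permutation p = 0.143, adjusted p = 0.381) and of -1.78 between ACL5 and EN7 (exact permutation p = 0.457). Both sets of libraries overlapped. Without EN7 WT replicate 1 these differences were 1.90 and -3.17. Without that library and ACL5 ktn1 replicate 2 they were 1.64 (exact permutation p = 0.40) and -4.16 (exact permutation p = 0.10, the smallest that 3 against 3 can give, adjusted p = 0.267). All of these ratios had 1 RPM added to each arm, which weighs most where miR158a-5p held 3 reads or fewer. With all libraries, the 2 differences were 3.48 and -3.51 with 0.1 RPM added, and 1.69 and -0.81 with 5 RPM added. miR158b over miR158a-3p differed by -0.18 between ktn1 and WT and by -0.13 between ACL5 and EN7, again with overlap (exact permutation p = 0.229 and 0.543). Without EN7 WT replicate 1 and ACL5 ktn1 replicate 2 these were -0.015 and 0.057.

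Between layers, no member was called in either genotype. In WT, miR158a-3p averaged 38265 ± 7881 RPM in ACL5 and 38180.3 ± 2571 RPM in EN7 (SD, n = 2 each), a log2 difference of -0.011 (SE 0.40, limma adjusted p = 0.980). miR161.1 averaged 10217 ± 1351 RPM in ACL5 and 20806 ± 13318 RPM in EN7, with no overlap and a log2 difference of -0.87 (SE 0.57, limma adjusted p = 0.407), which was -0.16 without EN7 WT replicate 1. It was the only 1 of 4 members without overlap, against 55.8% of the 86 entries (25.6% lower in ACL5), and 3.49% of entries were called. In ktn1, miR161.1 averaged 9703 ± 1796 RPM in ACL5 and 5726 ± 3169 RPM in EN7, with no overlap and a log2 difference of 0.87 (SE 0.57, limma adjusted p = 0.322). It was 1.46 without EN7 ktn1 replicate 1 and 0.27 without EN7 ktn1 replicate 2. It was 1.67 with equal miRNA sums (limma adjusted p = 0.0570), 0.15 with rescaling to the median miRNA and 0.36 with equal sums that left out miR165 and miR166. miR158a-3p averaged 54944 ± 6641 RPM in ACL5 ktn1 and 70214.6 ± 41294 RPM in EN7 ktn1, which overlapped (log2 difference -0.22). This difference was -0.94 with rescaling to the median miRNA (limma adjusted p = 0.102). It was -0.73 with equal sums that left out miR165 and miR166, and 0.58 with equal miRNA sums. In ktn1, 16.3% of entries were called between layers, and 2 of 4 members did not overlap (miR158a-5p and miR161.1, both higher in ACL5), against 69.8% of entries (53.5% higher in ACL5). For miR158a-5p this rests on 3 reads in ACL5 ktn1 replicate 2 against 2 and 0 reads in EN7 ktn1, which cannot be told apart at the floor of 3 reads. The median log2 difference of all entries between layers was 0.39 in WT and 0.91 in ktn1.

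In seedlings, miR158a-3p, miR158b and miR161.1 were all lower in ktn1 than in WT, with no overlap, and none passed the test. miR158a-3p was at 3599 and 2849 RPM in ktn1, against 5584 and 4199 RPM in WT (log2 difference -0.60, SE 0.39, limma adjusted p = 0.643). miR161.1 was at 1323 and 1116 RPM in ktn1, against 1792 and 1705 RPM in WT (log2 difference -0.52, SE 0.28, limma adjusted p = 0.518). miR158b was at 18.4 and 18.0 RPM in ktn1, against 28.5 and 23.9 RPM in WT (log2 difference -0.50, SE 0.37, limma adjusted p = 0.643). Of all 62 tested entries, 45.2% did not overlap, 35.5% lay lower in ktn1 without overlap and 1.61% were called in either direction. The median log2 difference was -0.51 over the 4 tested members and -0.13 over all entries. miR161.2 had a log2 difference of -0.16 (SE 0.34, limma adjusted p = 0.854), whose sign turned under each of 3 rescalings (0.014 to 0.083).

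The order of mean levels differed between the members. For miR158a-3p it ran EN7 ktn1, ACL5 ktn1, ACL5 WT, EN7 WT, seedling WT, seedling ktn1. EN7 ktn1 overlapped both ACL5 ktn1 and ACL5 WT, and the 2 WT layers overlapped each other. The lower EN7 ktn1 library, at 41016 RPM, lay below the higher ACL5 WT library, at 43838 RPM. For miR161.1 the order ran EN7 WT, ACL5 WT, ACL5 ktn1, EN7 ktn1, seedling WT, seedling ktn1, with overlap only between the ACL5 genotypes. miR158b had the order of miR158a-3p with the 2 WT layers exchanged.

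Across the 8 AGO1 libraries, the entries whose log2(RPM + 1) was most like that of miR158a-3p, of 85 others, were miR158b (Pearson r = 0.92), miR172c/miR172d-3p (r = 0.79) and miR824-5p (r = 0.66). Those most like miR161.1 were miR164c-5p (r = 0.83), miR831-3p (r = 0.83) and miR168a-3p (r = 0.81). miR158a-3p and miR161.1 themselves had r = -0.24. For miR158a-5p, looked at after its values were seen, they were miR396b-3p (r = 0.97), miR157a-3p/miR157b-3p (r = 0.96) and miR396a-3p (r = 0.92). For example, miR396a-3p was at 1114 and 36.3 RPM in ACL5 ktn1, against 388 and 316 RPM in ACL5 WT, and at 3.54 and 1.18 RPM in EN7 ktn1, against 322 and 7.92 RPM in EN7 WT. The same libraries were low as for miR158a-5p. These correlations describe 8 libraries that share depth and composition, and carry no test.

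miR173-5p, the guide that starts TAS1 and TAS2 siRNA production, was at 51.0 and 923 RPM in ACL5 ktn1, against 594 and 248 RPM in ACL5 WT. In EN7 it was at 2230 and 881 RPM in ktn1, against 758 and 1823 RPM in WT. Replicates differed too widely for genotypes to separate, with log2 differences of -0.81 in ACL5 (SE 1.34, limma adjusted p = 0.856) and 0.25 in EN7 (SE 1.34, limma adjusted p = 0.940). In seedlings it was at 42.9 and 40.4 RPM in ktn1, against 52.4 and 48.5 RPM in WT, a log2 difference of -0.27 (SE 0.33, limma adjusted p = 0.718). Its opposite arm, miR173-3p, stayed at or below 0.799 RPM in every library. In a wider list of other miRNAs known from Arabidopsis and its relatives (miR163, miR173, miR822, miR823, miR824, miR825, miR838 and miR840; 12 entries), 7 were tested in AGO1 libraries and 5 in seedlings, and 0 were called in any of the 6 comparisons. Their median ktn1-to-WT log2 difference was -0.28 for ACL5, -0.63 for EN7 and -0.053 for seedlings, against -0.0019, -0.47 and -0.13 over all tested entries.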

How the data were processed

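Per the labels' protocols, AGO1-bound small RNA was recovered with GFP-Trap beads and libraries were made with a NEBNext small RNA kit. The submitters' processing notes name cutadapt, Bowtie and build TAIR10, with no settings; the miRNA annotation, length filter and denominator are not given in the sources used here. The authors deposited 1 file of RPM values per library, the unit being judged from the values. Every value above 0 was a whole multiple of the smallest (within 0.01), which was taken as 1 read. Entries that a file did not list were set to 0.

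Values were analysed as log2(RPM + 1), which understates changes of low entries. limma 3.58.1 in R 4.3.3 (eBayes with a mean-variance trend) was fitted to all entries that reached 10 RPM in 2 or more libraries, with 8 AGO1 libraries together and 4 seedling libraries apart, two-sided, at an adjusted p of 0.05. The seedling fit, with 124 degrees of freedom from 4 libraries, borrows nearly all of its spread from the trend over entries. Log2 ratios within a library, with 1 RPM added to each entry, were compared by exact permutation tests in Python 3.11.15 with SciPy 1.17.1. These tests of 8 AGO1 libraries exchanged libraries across layers and genotypes alike. The fits were tested on simulated data. Named entries were all members, miR173 and the 3 entries most correlated with miR158a-3p and with miR161.1. Members and lists were chosen with earlier results of these data known. Alternatives covered pseudocounts, filters, rescalings, the trend, the replicate number as a block and leaving out each library.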

Additional observations from a re-analysis of the deposited data

Results flagged for a closer look

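On the RPM scale the ktn1 difference of miR158a-3p had opposite directions in root AGO1 libraries and in seedlings, with no overlap between genotypes in either. It was 0.53 in ACL5 and 0.74 in EN7, against -0.60 in seedlings, on the log2 scale. Across the rescalings it ran from 0.084 to 0.51 in ACL5, 0.0040 to 1.34 in EN7 and -0.42 to -0.34 in seedlings. On the RPM scale the EN7 separation rests on 41016 RPM in ktn1 replicate 2 against 39998 RPM in WT replicate 2. As shares of listed miRNA reads, the EN7 genotypes overlapped. miR158b showed opposite directions on the RPM scale in ACL5 and seedlings, at 0.45 and -0.50. With equal sums that left out miR165 and miR166 these were 0.0043 and -0.25, beside medians of -0.42 and 0.13 over all tested entries. None of these values passed its own test, the difference between roots and seedlings was not tested, and the 2 sets differ in tissue, age and assay. Only members were searched for such opposite directions, and how many other entries show them was not counted. Genotypes did not overlap, in either direction, for 47.7% of tested entries in ACL5, 46.5% in EN7 and 45.2% in seedlings.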

How the results depend on the processing

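The number of tested members called was 0 in 84 of 88 alternatives. The exceptions were all in ktn1 against WT in EN7: 1 with equal miRNA sums (miR161.1, -2.56, limma adjusted p = 0.0460), 1 with a replicate block (miR161.1, -1.82, limma adjusted p = 0.0343), and 0 to 2 when single libraries were left out. Same-numbered libraries had a correlation of deviations of 0.42 in EN7, -0.48 in ACL5, -0.17 between WT layers, 0.013 between ktn1 layers and 0.18 in seedlings, so they share only a number. The block changed no other member's call. With the replicate numbers of ACL5 WT crossed, an alternative added after seeing the data, 0 members were called in ACL5 and between WT layers. Of all entries, the block called 4 in ACL5, 8 in EN7 and 0 in seedlings, against 4, 6 and 1 without it, and equal miRNA sums called 33 between layers in ktn1, against 14. Under equal miRNA sums signs turned for miR158b in EN7 (-0.28), for the interactions of miR158a-3p (0.28) and miR158b (0.48), and between layers for miR158a-3p and miR158b in WT (0.31 and 0.076) and ktn1 (0.58 and 0.55). miR161.2 in seedlings turned to 0.077 with equal sums, 0.014 with the median miRNA and 0.083 with equal sums without miR165 and miR166. The cause was not tested.

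Leaving out 1 library moved the ktn1 difference in ACL5 of miR158a-5p between -3.30 and 0.41 and of miR161.1 between -0.27 and 0.11. In EN7 it moved miR158a-3p between 0.10 and 1.38, miR158b between -0.23 and 1.15, miR158a-5p between -4.94 and 0.10, and miR161.1 between -2.52 and -1.11. The interaction moved between -0.85 and 0.43 for miR158a-3p, -1.55 and 3.50 for miR158a-5p, -0.70 and 0.68 for miR158b, and 1.03 and 2.44 for miR161.1. The WT layer difference moved between -0.22 and 0.20 for miR158a-3p, -1.34 and 3.70 for miR158a-5p, and -0.49 and 0.012 for miR158b. In ktn1 it moved between -0.86 and 0.42 for miR158a-3p, -0.94 and 0.44 for miR158b, and 0.27 and 1.46 for miR161.1. In seedlings miR161.2 moved between -0.34 and 0.014. The miR161.1 to miR158a-3p ratio moved between -1.87 and -1.19 for ktn1 against WT and between -0.32 and 0.80 between layers, where leaving out EN7 WT replicate 1 and ACL5 ktn1 replicate 2 together gave 1.01. The ratio of the MIR158a arms moved between 1.90 and 3.63 for ktn1 against WT and between -3.17 and -1.08 between layers. The miR158b to miR158a-3p ratio moved between -0.19 and 0.0061 between layers, and was 0.057 without EN7 WT replicate 1 and ACL5 ktn1 replicate 2. Over 12 alternatives the miR161.1 to miR158a-3p ratio had an adjusted p of 0.114 to 0.333 between genotypes (exact permutation). Its direction could not turn when libraries were left out, because all ktn1 root libraries already lay below all WT root libraries. The block keeps the same mean difference, and both entries lie far above the added RPM. With a replicate block the difference of this ratio was -1.59, with p = 0.125 by exact permutation of the signs of paired differences (adjusted p = 0.333). That p is the smallest that 4 pairs can give. Planned tests on counts were not run, because the deposited values are RPM. Fits of only the compared groups were not run for the interaction and the seedlings, where all libraries fitted are already those compared. Depth limits miR400, miR161.2 and miR158a-5p.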
